A study of Danio rerio with 3 samples.

Results

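Retinal barcodes that carried urotensin 1 (uts1) transcripts together with bipolar cell transcripts were described. A barcode, the tag of 1 droplet and nominally of 1 cell, was a member where it held 200 or more genes, 4 or more UMIs (counted transcript molecules) of uts1, fewer than 3 UMIs of prkca, and at least 1 UMI summed over rs1a, vsx1, cabp2a, cabp5a and bhlhe23. These conditions were met by 195 of the 29461 barcodes of the V3 libraries, namely 140 of 15547 in P23H V3 and 55 of 13914 in WT V3. The members were chosen by the measured values of those 7 genes, so their levels in members are given as descriptions only.

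The study compared the retinas of adult zebrafish carrying a P23H rhodopsin transgene (line uth4Tg), a model of retinitis pigmentosa in which the mutant opsin is made in rods, with those of wild type (WT) fish of the AB strain. The labels give an age of 4 to 8 months for both, and both were kept on the same light cycle and collected in the morning. Each library pooled dissociated whole retinas of 3 fish, and there was 1 library per genotype and chemistry: P23H V3, WT V3 and a shallower P23H V2 library. With 1 library per condition there is no replicate and no test between genotypes. All intervals below are 95% intervals that cover counting error only. They are exact, except those of ratios of shares, which are large-sample approximations on the log scale. A difference between the libraries cannot be told apart from a difference between pools of fish, preparations or strain backgrounds.

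Urotensin I is a peptide of the corticotropin-releasing hormone (CRH) family, the fish counterpart of mammalian urocortin 1, and is unrelated to urotensin II. It was first known from the caudal neurosecretory system of fish, acts on CRH receptors and is bound by the CRH-binding protein. Bipolar cells are the interneurons that carry photoreceptor signals to the inner retina: ON types sense glutamate through mGluR6 and the channel TRPM1, OFF types through AMPA and kainate receptors, and all release glutamate at ribbon synapses. Peptides such as urotensin I travel in dense core vesicles, which carry granins and processing enzymes.

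Across the whole libraries, P23H V3 held 31429971 UMIs with a median of 1241 per barcode, and WT V3 held 32916412 with a median of 1198. The uts1 transcript reached 81.6 CPM (counts scaled to a common total of UMIs) in P23H V3 and 36.8 CPM in WT V3. The P23H V2 library, with a median of 293 UMIs, held uts1 at 35.1 CPM, at most 3 UMIs in any barcode, and 0 members. P23H V3 and WT V3 shared 64 barcode sequences, 2 of which belonged to WT members and 0 to P23H members. The uts1 transcript was also looked for in other cell types, and whether it came there from free RNA was not tested. It was held by 1 of 430 horizontal cell barcodes of P23H V3 (0.233%, median 1832 UMIs, 19.9 CPM) and 1 of 429 of WT V3 (0.233%, median 2046 UMIs, 1.04 CPM). Ganglion cell barcodes held it in 0.876% of 571 in P23H V3 (4.45 CPM) and 1.24% of 403 in WT V3 (3.12 CPM), at medians of 2856 and 3319 UMIs. Müller glia barcodes held it in 1.42% of 1194 in P23H V3 (median 2376 UMIs, 7 of them with 4 or more uts1 UMIs) and 1.28% of 783 in WT V3 (median 3798 UMIs, 0 with 4 or more). Bipolar barcodes with prkca under 3 held it in 7.05% in P23H V3 (median 943 UMIs, 147 CPM) and 5.29% in WT V3 (median 1059 UMIs, 88.1 CPM). These include members, which were chosen by uts1. Amacrine barcodes with fewer than 4 bipolar gene UMIs held it in 3.45% of 2667 in P23H V3 (147 CPM) and 1.69% of 1836 in WT V3 (46.9 CPM), at medians of 1835 and 2054 UMIs. These too include members. Barcodes with 3 or more prkca UMIs and a bipolar gene UMI held it in 6.51% of 215 in P23H V3 (51.2 CPM) and 2.01% of 149 in WT V3 (11.3 CPM).

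Members were more frequent in the P23H library. They made up 0.900% of the P23H V3 barcodes (0.758 to 1.06%) and 0.395% of the WT V3 barcodes (0.298 to 0.514%), a ratio of 2.28 (1.67 to 3.11). Among bipolar barcodes alone, with the members included, the shares were 1.83% of 7640 in P23H V3 and 0.941% of 5845 in WT V3, a ratio of 1.95 (1.43 to 2.66). Because the rule asks for a number of uts1 molecules, the share depends on depth, and each deep enough barcode was therefore also thinned to 2000 UMIs, which left 4597 P23H and 4215 WT barcodes. Of these, 36 P23H barcodes (0.783%) and 15 WT barcodes (0.356%) met the rule. The ratio was lower among barcodes rich in uts1. With 8 or more uts1 UMIs, 46 P23H and 27 WT members were left, and it was 1.52 over all barcodes and 1.30 over bipolar barcodes. No interval was computed for these 2 ratios, so they are not read as a difference between the libraries.

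Just inside the limit, 30 P23H and 14 WT members had 4 uts1 UMIs, and just outside it, 55 P23H and 28 WT barcodes that met the other conditions had 3. Of all barcodes with 4 or more uts1 UMIs, 183 in P23H V3 and 68 in WT V3, the prkca limit removed 3 P23H barcodes (median 48959 UMIs) and 1 WT barcode (17405 UMIs). A further 40 P23H and 12 WT barcodes had no UMI of the bipolar genes, and 36 and 8 of these held amacrine cell markers. At the other limits, 14 P23H and 3 WT members had only 1 bipolar gene UMI, and 1 P23H and 0 WT members had 2 prkca UMIs.

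The label of a bipolar cell type was checked against its markers, and the members proved to be a mixture. Of the 4 marker genes given for these cells, uts1 was in every member by the rule, whereas scg2a (secretogranin II), ankrd9 and cd82a (a tetraspanin) had UMIs in 59, 38 and 56 of the 140 P23H members and in 23, 22 and 23 of the 55 WT members. Members were then sorted into 3 kinds, which were defined after their values had been seen and are a description. The first kind, called nrgna members, held 8 or more UMIs summed over nrgna, rdh10a, plk2a and tspan18a, which encode neurogranin (a calmodulin-binding protein), a retinol dehydrogenase, a polo-like kinase and a tetraspanin. There were 64 nrgna members in P23H V3 (45.7%) and 26 in WT V3 (47.3%). The second kind, called gad2 members, lacked this set and held 5 or more UMIs of amacrine cell markers, among them gad2, the enzyme that makes GABA. It counted 29 P23H members (20.7%) and 9 WT members (16.4%). The remaining 47 P23H members (33.6%) and 20 WT members (36.4%) had neither.

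The sum over the 4 set genes separated the nrgna members cleanly. In P23H V3, 76 members were at 5 UMIs or fewer and the other 64 at 11 or more, with a median of 54 among the nrgna members. In WT V3, 29 members were at 2 UMIs or fewer and 26 at 21 or more, with a median of 63.5. Median total UMIs were 1895 in P23H and 2318 in WT nrgna members, 2564 and 1674 in gad2 members, and 893 and 1156 in the other members. The barcodes richest in uts1 were mostly of the first 2 kinds: of the 38 P23H members with 10 or more uts1 UMIs, 21 were nrgna, 14 gad2 and 3 other members, and of the 21 WT members, 13, 7 and 1.

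**Figure D1:**
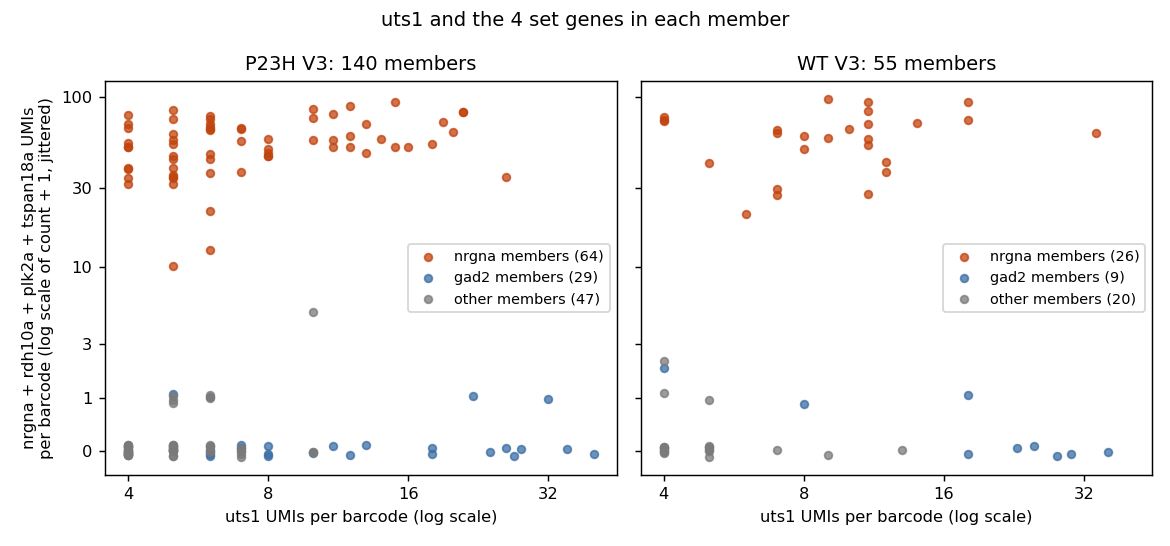
Each point is 1 member, with its uts1 UMIs on a log x axis and the summed UMIs of nrgna, rdh10a, plk2a and tspan18a on the y axis (log scale of the count plus 1, jittered). In both V3 libraries the nrgna members (64 in P23H, 26 in WT) stand apart from all others, at 11 UMIs or more in P23H and 21 or more in WT.

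The uts1 counts differed among the kinds. In nrgna members of P23H V3, uts1 ranged from 4 to 26 UMIs (median 6), and in those of WT V3 from 4 to 34 (median 9.5). The gad2 members held 4 to 40 UMIs (median 8) in P23H V3 and 4 to 36 (median 23) in WT V3. The other members held 4 to 10 (median 5) in P23H V3 and 4 to 13 (median 4.5) in WT V3, so that most stood close to the limit of the rule in UMIs. They also had the fewest total UMIs. Scaled to each barcode's total, the median uts1 level in P23H V3 was 5764 CPM in other, 3820 CPM in nrgna and 3580 CPM in gad2 members. In WT V3 it was 3960, 4376 and 10645 CPM. The minimum of 4 UMIs sets these levels in part. Summed over members, uts1 was at 4310 CPM in P23H V3 and 5200 CPM in WT V3, values that the rule sets in part. Each kind was more frequent in the P23H library, at 2.20 times the WT share of all barcodes for nrgna members (1.40 to 3.47), 2.88 times for gad2 members (1.37 to 6.09) and 2.10 times for the other members (1.25 to 3.55).

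**Figure D2:**
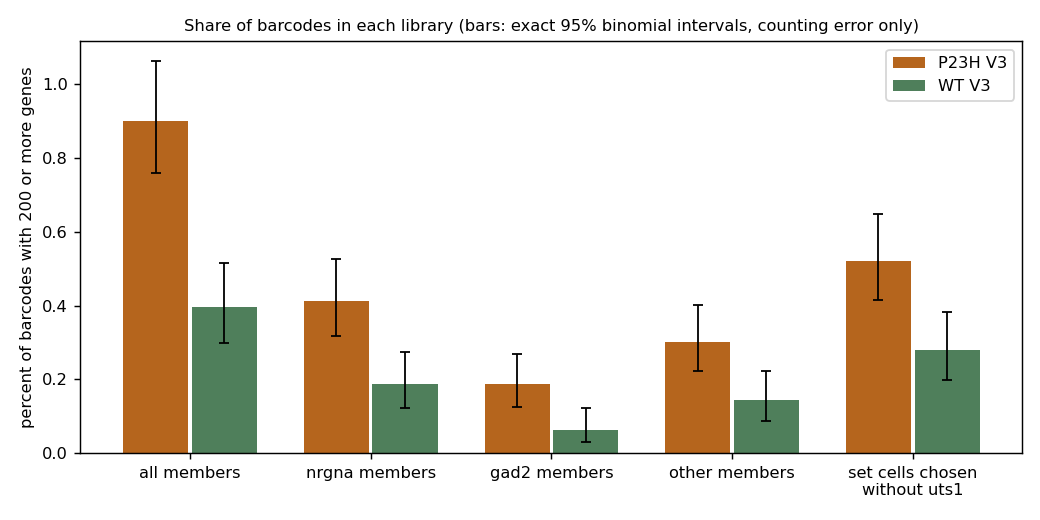
Bars give the percentage of barcodes with 200 or more genes that were members, each kind of member, or set cells chosen without uts1, in P23H V3 (left of each pair) and WT V3, with exact 95% binomial intervals. All members stood at 0.900% in P23H V3 and 0.395% in WT V3, and the P23H bar is the higher one in each pair.

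To free the level of uts1 from the rule, cells were also chosen without it: barcodes with nrgna, rdh10a and plk2a each detected and 8 or more set UMIs, 4 or more bipolar gene UMIs, prkca under 3 and few amacrine or ganglion cell markers. This choice was made after the data had been seen. It gave 81 set cells in P23H V3 (0.521%, 0.414 to 0.647%) and 39 in WT V3 (0.280%, 0.199 to 0.383%), a ratio of 1.86 (1.27 to 2.72) over all barcodes and of 1.59 (1.09 to 2.32) over bipolar barcodes. At least 1 uts1 UMI was held by 80 of the 81 P23H set cells (98.8%, 93.3 to 100.0%) and 36 of the 39 WT set cells (92.3%, 79.1 to 98.4%). Without the minimum of bipolar gene UMIs the numbers were 82 of 85 P23H cells (96.5%) and 38 of 47 WT cells (80.9%). The set genes were themselves picked from the profile of members, so these shares are not independent of the rule. At 4 or more uts1 UMIs were 55 of them in P23H V3 (67.9%) and 25 in WT V3 (64.1%).

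Per cell of this kind, the uts1 level was close between the libraries. It was 3253 CPM (2985 to 3537) in the P23H V3 set cells and 3389 CPM (3001 to 3813) in those of WT V3, and the log2 of their ratio was -0.06 (-0.27 to 0.16). Median UMIs were 1808 in P23H and 1857 in WT set cells. The value rests on the minimum of bipolar gene UMIs: without it there were 85 P23H and 47 WT set cells at 3107 and 2336 CPM, and the log2 of the ratio was 0.41, with an interval of 0.20 to 0.62. In the P23H V2 library, 5 set cells were found, 3 of which held uts1, at 1770 CPM (482 to 4532).

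The transcripts that set members apart from other bipolar cells came next. UMIs were summed over the members of a library and over the bipolar cells without uts1 (4 or more bipolar gene UMIs, prkca under 3, 6887 cells in P23H V3 and 5390 in WT V3), and a gene was called where the Poisson intervals of the 2 sums did not overlap and they differed by 1.5-fold or more. Genes with 20 or more UMIs in the group with the higher CPM were measured, and the 7 genes of the rule were left out. Of 3224 genes measured in both V3 libraries, 104 (3.23%) were called higher in members in both and 117 (3.63%) lower in both. Within single libraries, 389 of 6449 genes (6.03%) were called higher and 508 (7.88%) lower in P23H V3, and 176 of 4327 (4.07%) higher and 300 (6.93%) lower in WT V3.

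The 12 genes that were highest in members of both libraries were plk2a, ptp4a3, rdh10a, nrgna, chtf18, ankrd9, tspan18a, cd82a, si:dkey-40c11.1, dgkaa, atp2b4 and scg2a. Most of their UMIs were in the nrgna members: ankrd9, cd82a, dgkaa and plk2a, for example, had 0 UMIs in the 29 P23H and 9 WT gad2 members and in the 47 P23H and 20 WT other members. The exception was scg2a, found in 9 of the 29 P23H gad2 members at 157 CPM and in 1 of the 9 WT gad2 members at 67.8 CPM. The nrgna members are therefore described by themselves, as the only kind in which all 4 marker genes were found. The genes nrgna, rdh10a, plk2a and tspan18a were also used to define this kind, so their values there are set by that choice. The other 8 did not define it, but they were picked as the highest genes of members in these same counts. Of these, scg2a, ankrd9 and cd82a were also the given markers. Their levels in nrgna members are therefore a description too.

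Neurogranin was the most abundant transcript of the set. In the nrgna members it stood at 14035 CPM in P23H V3 and 12430 CPM in WT V3, against 202 and 212 CPM in bipolar cells without uts1. Its counts per nrgna member ranged from 0 to 51 UMIs in P23H V3 (median 30) and from 11 to 54 in WT V3 (median 33.5). The retinol dehydrogenase gene rdh10a was at 6795 CPM in P23H and 5916 CPM in WT nrgna members, against 65.1 and 104 CPM in bipolar cells without uts1, and it was detected in every nrgna member. The kinase gene plk2a was at 3613 CPM in P23H and 2973 CPM in WT nrgna members, against 25.5 and 15.7 CPM. The tetraspanin gene tspan18a was at 1851 and 1559 CPM, against 41.5 and 45.7 CPM.

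Of the given markers, cd82a was at 1242 CPM in P23H and 1151 CPM in WT nrgna members, against 22.3 and 34.5 CPM in bipolar cells without uts1, and it was detected in 56 of 64 P23H and 23 of 26 WT nrgna members. The level of scg2a was 1175 CPM in P23H and 933 CPM in WT nrgna members, against 41.2 and 37.5 CPM. For ankrd9 the values were 870 and 1370 CPM, against 13.9 and 11.4 CPM. It was detected in 38 of 64 P23H and 22 of 26 WT nrgna members, and it was called lower in P23H than in WT nrgna members (log2 ratio -0.66, -1.06 to -0.25).

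The phosphatase gene ptp4a3 reached 922 CPM in P23H and 699 CPM in WT nrgna members, against 11.7 and 10.4 CPM in bipolar cells without uts1. The clamp loader gene chtf18 reached 795 and 379 CPM, against 11.8 and 4.19 CPM. The diacylglycerol kinase gene dgkaa was at 446 and 452 CPM, against 5.31 and 16.3 CPM, and the plasma membrane calcium pump gene atp2b4 was at 193 and 379 CPM, against 5.92 and 14.96 CPM. The levels of dgkaa and atp2b4 thus differed from those in bipolar cells without uts1 by 25.3-fold or more in both libraries. Among genes named after their values were seen, the phospholipase C gene plch2a was at 1301 CPM in P23H and 1297 CPM in WT nrgna members, against 55.4 and 65.0 CPM. The neurotrophin gene bdnf was at 892 and 583 CPM, against 75.2 and 56.1 CPM. The regulator of G protein signalling rgs8 was at 3747 and 2987 CPM, against 305 and 229 CPM.

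**Figure D3:**
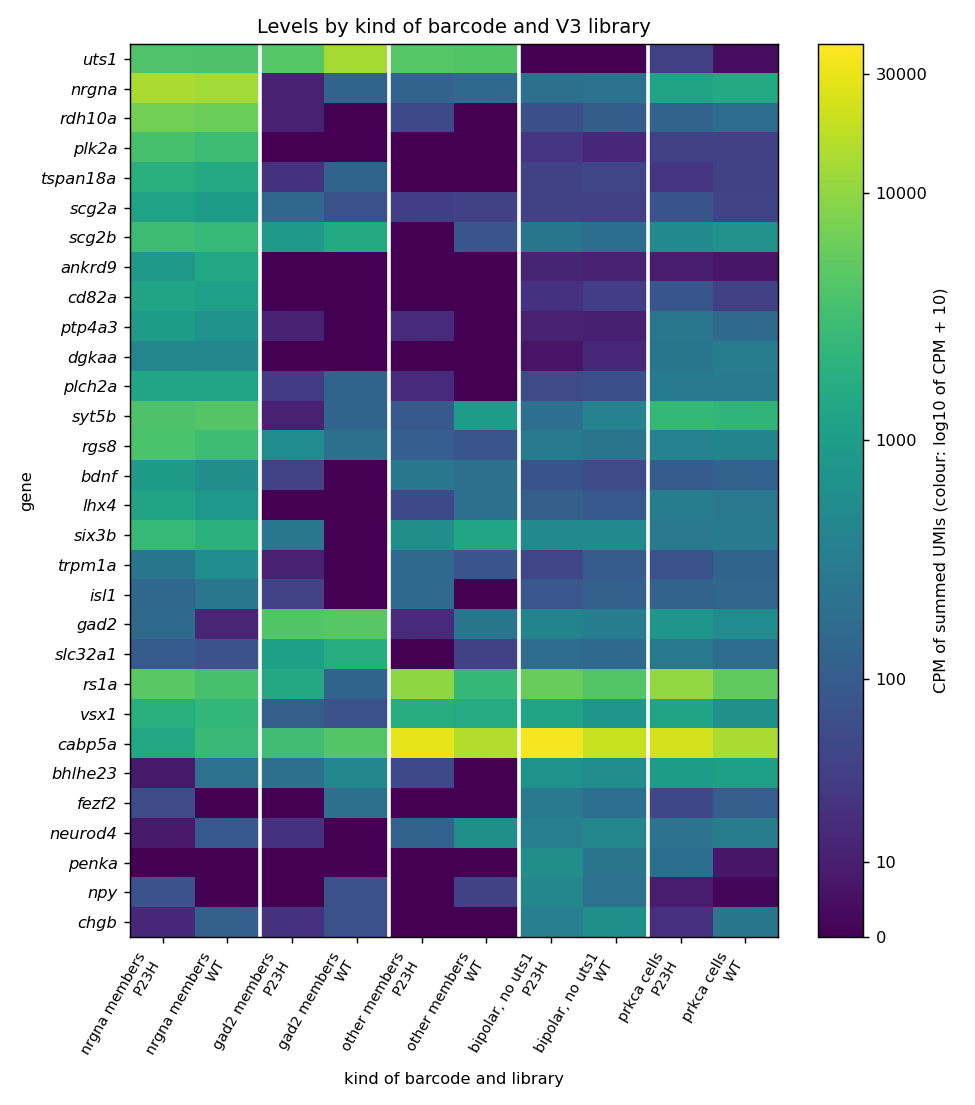
Colour gives the CPM of summed UMIs (scale: log10 of CPM plus 10) of 30 genes, by kind of barcode and, within each pair of columns, P23H V3 left and WT V3 right. The rows from nrgna to ptp4a3 are brightest in the nrgna members, where nrgna reaches 14035 CPM in P23H and 12430 CPM in WT, gad2 and slc32a1 are brightest in the gad2 members, and cabp5a is bright in the other members and in bipolar cells without uts1.

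Over the whole profile, 102 of the 2308 genes measured in both libraries (4.42%) were called higher in nrgna members than in bipolar cells without uts1 in both, and 196 (8.49%) were called lower in both. The median log2 ratio over all measured genes was -0.48 in each library. The minimum of 20 UMIs in the higher group stood for a higher CPM in nrgna members than in bipolar cells without uts1, whose summed UMIs were far more. The sums were 134517 and 9796182 UMIs in P23H V3, and 68622 and 8354315 in WT V3. The median of -0.48 is therefore not read as a direction. Against the 212 P23H and 148 WT prkca cells (3 or more prkca UMIs and fewer than 4 of uts1), which carry the rod bipolar marker, 86 of 2001 genes (4.3%) were called higher in nrgna members in both libraries and 148 (7.4%) lower. In nrgna members over prkca cells, the log2 ratio of nrgna was 3.46 in P23H V3 and 2.97 in WT V3, that of rdh10a 5.71 and 5.07, that of plk2a 6.59 and 6.28, and that of ankrd9 6.61 and 7.68. The synaptotagmin gene syt5b was less particular: it was at 3962 CPM in P23H and 4255 CPM in WT nrgna members and at 2477 and 2225 CPM in prkca cells, against 197 and 387 CPM in bipolar cells without uts1.

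Several genes of dense core vesicles and peptide processing stood high in the nrgna members. Of 18 genes listed, 12 were measured in P23H V3, where 7 were called higher than in bipolar cells without uts1 (6.47% of all measured genes were) and 1 lower (11.4% were). The list's median log2 ratio was 1.01 in P23H V3. In WT V3, 6 were measured, of which 3 were called higher (5.15% of all were) and 1 lower (9.76% were), with a median of 1.89. Those 3 were scg2a, scg2b and ptprna, which were also called higher in P23H V3. Of them, scg2a is a given marker of these cells and 1 of the 12 highest genes of members picked above. The shares of this list are therefore a description. Secretogranin II was the leading component in both copies, as scg2b was at 2936 CPM in P23H and 2536 CPM in WT nrgna members, against 240 and 192 CPM. Transcripts of the receptor-like phosphatase of secretory granules, ptprna, were at 528 and 335 CPM, against 32.1 and 28.5 CPM. Called higher in P23H V3 and not in WT V3, a difference that was not tested, were pam (the peptide-amidating enzyme), cpe (a carboxypeptidase that trims peptide precursors), pcsk1nl (an inhibitor of a prohormone convertase) and cadpsa (which primes dense core vesicles for release). In WT V3, pam was at 131 CPM in nrgna members, against 39.0 CPM, from 9 UMIs, too few to be measured. In the same WT nrgna members, pcsk1nl had 13 UMIs (189 CPM), also too few to be measured. There cadpsa had 6 UMIs (87.4 CPM) and cpe had 41 (597 CPM). Over all WT members, pcsk1nl was called higher than in bipolar cells without uts1. The missing WT calls of pam, pcsk1nl and cadpsa rest on few UMIs and are not read as a difference between the libraries. Chromogranin B, chgb, ran the other way, with 14.9 CPM in P23H and 117 CPM in WT nrgna members, against 355 and 604 CPM.

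No other listed neuropeptide was called higher in the nrgna members. Of these genes, 9 were measured in P23H V3 and 6 in WT V3, 0 were called higher in nrgna members, and 6 were called lower in P23H V3 and 2 in WT V3. Over all measured genes, 6.47% were called higher and 11.4% lower in P23H V3, and 5.15% and 9.76% in WT V3. Proenkephalin, penka, had 0 UMIs in all 195 members, against 584 CPM in P23H V3 and 232 CPM in WT V3 in bipolar cells without uts1. Neuropeptide Y, npy, was at 74.3 CPM in P23H nrgna members, 70% of it from 1 barcode, and at 0 UMIs in those of WT V3, against 449 and 214 CPM. Over the whole libraries, penka was found in only 164 barcodes of P23H V3 and 84 of WT V3, so its level in other bipolar cells comes from few barcodes and no fold is given.

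Of 23 transcription factors listed, 3 of 16 measured were called higher in nrgna members in P23H V3 (isl1, lhx4 and six3b) and 7 lower, beside 6.47% and 11.4% of all measured genes. In WT V3, 2 of 14 were called higher (lhx4 and six3b) and 4 lower, beside 5.15% and 9.76%. In WT nrgna members, isl1 had 17 UMIs (248 CPM), too few to be measured, beside 21 (156 CPM) in P23H nrgna members. The gene isl1 is also counted in the mGluR6 cascade list below. The LIM homeobox gene lhx4 was at 1249 CPM in P23H and 816 CPM in WT nrgna members, against 114 and 88.8 CPM in bipolar cells without uts1. The homeobox gene six3b was at 2557 and 2055 CPM, against 512 and 505 CPM. On the lower side were neurod4, at 7.43 CPM in P23H and 87.4 CPM in WT nrgna members, against 342 and 444 CPM, and the zinc finger gene fezf2, at 59.5 CPM in P23H nrgna members (from 2 barcodes) and 0 UMIs in those of WT V3, against 302 and 199 CPM.

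Of the bipolar genes of the rule, the nrgna members carried mainly rs1a, with less vsx1, cabp5a and cabp2a and little bhlhe23. The retinoschisin gene rs1a was detected in every nrgna member, at 4810 CPM in P23H V3 and 3512 CPM in WT V3. The homeobox gene vsx1 was at 1866 and 2405 CPM, in 37 of 64 P23H and 21 of 26 WT nrgna members. The calcium-binding protein gene cabp5a was at 1435 and 2696 CPM, against 35434 and 19974 CPM in bipolar cells without uts1, and its median per nrgna member was 1 UMI in P23H V3 and 0.5 in WT V3. It had UMIs in 36 of 64 P23H and 13 of 26 WT nrgna members. Of its 185 UMIs in WT nrgna members, 100 were in 1 barcode. Bipolar cells without uts1 needed 4 or more UMIs of the bipolar genes, cabp5a among them, and members only 1. The choice of cells thus sets the cabp5a contrast in part. The gene cabp2a was at 669 CPM in P23H and 918 CPM in WT nrgna members, with UMIs in 40 of 64 and 21 of 26 of them. The gene bhlhe23 had UMIs in 1 of 64 P23H and 4 of 26 WT nrgna members.

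Of 15 genes listed for the mGluR6 cascade of ON cells, 4 were measured in P23H V3 and 3 in WT V3. Called higher in nrgna members than in bipolar cells without uts1 were trpm1a, isl1 and gnao1a in P23H V3 (6.47% of all genes were) and trpm1a and rgs11 in WT V3 (5.15% were), with 0 lower in either. In WT nrgna members, isl1 had 17 UMIs (248 CPM) and gnao1a 18 (262 CPM), and in P23H nrgna members rgs11 had 16 (119 CPM). These were too few to be measured, so the missing calls are not read as a difference between the libraries. Of the receptor genes, grm6a had 1 UMI in P23H and 2 in WT nrgna members and grm6b had 0 in both. Neither was among the measured genes in either library, so these counts are not read as a difference from other bipolar cells or as absence. The channel gene trpm1a was at 238 CPM in P23H and 554 CPM in WT nrgna members, against 45.8 and 99.7 CPM. Among AMPA and kainate receptors, 0 were called higher in either library, and grik1a and grik1b were called lower in P23H V3. The GABA receptor genes gabrr1 and gabrr2a were called lower in both: gabrr1 was at 44.6 and 29.1 CPM, against 225 and 146 CPM. Calmodulin genes calm1a and calm1b were called higher in both libraries, calm1a at 9850 CPM in P23H and 12518 CPM in WT nrgna members, against 2954 and 2214 CPM, while calb1, calb2b, cabp2b, rcvrn3 and calm2a were called lower in both. In the list of ribbon synapse and release genes, vamp1, syt5b and nsfa were called higher in both libraries and bsnb, pclob and snap25a lower in both. The gene rims2a was called lower in P23H V3 and higher in WT V3, from 15 UMIs in P23H and 40 in WT nrgna members. Over all genes measured in both libraries, 4.42% were called higher in nrgna members in both and 8.49% lower in both.

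The lowest genes in all members over bipolar cells without uts1 were npy, hbaa2, hbba2, penka, chgb, fezf2, cyp26a1 and hbaa1. Of these, hbaa2, hbba2 and hbaa1 are haemoglobin genes, which are transcripts of red blood cells: the 6 erythroid markers summed to 2352 CPM in P23H and 1469 CPM in WT members, against 11805 and 12026 CPM in bipolar cells without uts1, and their part in the other ratios was not tested. One marker of the retinal pigmented epithelium was high in the nrgna members, namely the retinaldehyde-binding protein gene rlbp1b, at 6066 CPM in P23H V3 and 6995 CPM in WT V3, against 175 and 1637 CPM. It was detected in all 64 P23H and all 26 WT nrgna members, at a median of 12 and 16.5 UMIs, and in 4 of the 47 P23H and 6 of the 20 WT other members.

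The gad2 members were chosen by amacrine cell markers, so those levels are a description: gad2 was at 4177 CPM in P23H V3 and 4540 CPM in WT V3, and the vesicular GABA transporter gene slc32a1 at 1089 and 1762 CPM. The calcium-binding protein gene necab1, not used in the choice and named after its values were seen, was at 1033 CPM in P23H and 1423 CPM in WT gad2 members, against 44.6 and 43.7 CPM in nrgna members. Over bipolar cells without uts1, 23 of the 790 genes measured in both libraries (2.91%) were called higher in gad2 members in both and 39 (4.94%) lower. Of these members, 17 of 29 in P23H V3 and 5 of 9 in WT V3 had fewer than 4 bipolar gene UMIs. The summed uts1 level of the gad2 members, which the rule sets in part, was 4536 CPM in P23H V3 and 12876 CPM in WT V3. These values come from 29 and 9 barcodes, at 4 to 40 and 4 to 36 uts1 UMIs. They are a description and are not read as a difference between the libraries. Among barcodes with 5 or more amacrine marker UMIs and fewer than 4 bipolar gene UMIs, 54 of 2667 in P23H V3 and 13 of 1836 in WT V3 held 4 or more uts1 UMIs. These include the 17 P23H and 5 WT gad2 members with fewer than 4 bipolar gene UMIs, which were chosen by uts1. Whether the gad2 members with more bipolar transcripts were single cells or droplets with more than 1 cell was not tested.

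The other members had neither the set genes nor the amacrine markers, and carried much cabp5a, a gene of the rule. It stood at 28872 CPM in P23H V3 and 15552 CPM in WT V3, beside 35434 and 19974 CPM in bipolar cells without uts1. Of 1007 genes measured in both libraries, 13 (1.29%) were called higher than in bipolar cells without uts1 in both, and 34 (3.38%) lower. The other members summed to only 55763 UMIs in P23H V3 and 24885 in WT V3, against 134517 and 68622 in nrgna members. Fewer genes could thus be called, and the small shares are not read as likeness to common bipolar cells. Rod markers summed to 21609 CPM in the P23H and 18967 CPM in the WT other members, against 4775 and 19699 CPM in bipolar cells without uts1, and the part of rod transcripts in the P23H values was not tested.

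Within members, P23H V3 was then compared with WT V3. Of 1886 genes measured, 190 (10.1%) were called higher in P23H members and 121 (6.42%) lower, and the median log2 ratio over all measured genes was 0.33. Scaling by edgeR's TMM factors moved that median to 0.48 and the split to 302 higher and 89 lower, 77.2% higher among called genes, against 61.1% without the factors. Of the calls, 182 of the higher and 106 of the lower ones did not rest on 1 barcode or on fewer than 3 members. Within the nrgna members, 111 of 1003 genes (11.1%) were called higher and 83 (8.28%) lower, with a median of 0.20, and 104 of the higher and 57 of the lower calls did not rest on 1 barcode or on fewer than 3 members. In bipolar cells without uts1, which come from the same libraries, 1920 of 13445 genes (14.3%) were called higher and 2506 (18.6%) lower, with a median of -0.03. The minimum of 20 UMIs in the higher group stood for a lower CPM in P23H members (279343 UMIs) than in WT members (108263). The same holds for nrgna members (134517 and 68622 UMIs). Genes higher in P23H V3 could thus be measured at lower levels than genes higher in WT V3. With no minimum, 199 genes were called higher and 222 lower in members, with a median of -0.23. The medians of 0.33 and 0.20 and the splits of calls are therefore not read as a direction.

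The 10 genes highest in P23H over WT members, leaving out markers of rods, cones, pigment epithelium and red blood cells, were si:ch1073-70f20.1, iapp, LOC557301, scg5, cplx2l, crhb, msmo1, zgc:92658, shisa7b and dnajb1a. Several rested on few barcodes: the 246 P23H UMIs of si:ch1073-70f20.1 were all in 1 member, and of the 104 of crhb, the CRH gene, 73.1% were in 1 of 3 members. The islet amyloid peptide gene iapp had 117 UMIs in 16 P23H members, 15 of them gad2 members, and 1 UMI in WT members, and LOC557301 had 453 UMIs in 23 P23H members and 5 in WT members, with log2 ratios of 0.05 for iapp and 0.17 for LOC557301 in bipolar cells without uts1. The granin gene scg5, whose product chaperones a prohormone convertase, was detected in 104 P23H members, at 773 CPM, and in 0 WT members, at least 4.80 on the log2 scale. That gene had 13994 UMIs in 7257 barcodes of the whole P23H V3 library, 940 in P23H V2 and 0 in WT V3. Both V3 files list the same genes, but whether both libraries were counted with the same annotation is not given in the sources used here, and its part in this ratio was not tested.

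Of the others, the complexin gene cplx2l was at 308 CPM in P23H and 18.5 CPM in WT members and at 207 and 96.4 CPM in bipolar cells without uts1. The sterol synthesis gene msmo1 was at 122 and 9.24 CPM (3.72, and 2.03 in bipolar cells without uts1), and the chaperone gene dnajb1a at 115 and 9.24 CPM (3.63, and 0.27). For shisa7b, of a gene family that encodes receptor auxiliary proteins in mammals, the log2 ratio was 3.68 in members and 1.51 in bipolar cells without uts1, and for zgc:92658 it was 3.72 and 0.77. In P23H nrgna members, cplx2l had 11 of its 86 P23H member UMIs, msmo1 15 of 34 and shisa7b 6 of 33. There zgc:92658 had 17 of 34 and dnajb1a 18 of 32, and all of these were too few to be measured. The gad2 members gave 89063 of the 279343 UMIs of P23H members and 14756 of the 108263 of WT members. The part of this make-up in the member ratios was not tested.

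The 10 lowest were LOC108190663, cox4i1l, cebpb, icn, cebpd, zgc:123068, rlbp1a, zgc:153704, mdka and apoeb. The long non-coding RNA gene LOC108190663 was, among members, found mainly in the WT nrgna members, with 67 UMIs in 22 of 26 of them and at most 10.4% in any 1, against 2 UMIs in 2 of the 64 P23H nrgna members. Its level was 14.9 CPM in P23H and 976 CPM in WT nrgna members, a log2 ratio of -6.04 (-9.11 to -4.13). It had 0 UMIs in the gad2 and other members of both libraries, and in bipolar cells without uts1 it was at 5.10 CPM in P23H V3 and 4.31 CPM in WT V3. In the set cells chosen without uts1 it was at 5.97 CPM in P23H V3 and 1056 CPM in WT V3, and over the whole libraries it had 140 UMIs in P23H V3 and 158 in WT V3. The cytochrome oxidase subunit gene cox4i1l had 0 UMIs in P23H members and 63 in 17 WT members, and over the whole libraries 7 in P23H V3 and 1411 in WT V3, so the same limit applies as for scg5. For zgc:123068, with 0 UMIs in P23H and 21 in WT members, the log2 ratio in bipolar cells without uts1 was -3.78.

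Most of the remaining low genes came largely from 1 barcode. A WT nrgna member with 11331 UMIs held 198 of the 217 Müller glia marker UMIs of the WT nrgna members. It gave all 45 WT member UMIs of the transcription factor gene cebpb, 27 of the 28 of cebpd, 67 of the 69 of zgc:153704, 35 of the 46 of the midkine gene mdka, 26 of the 29 of the apolipoprotein gene apoeb and 25 of the 36 of rlbp1a. In P23H V3, a nrgna member with 10451 UMIs held 131 of the 166 Müller glia marker UMIs of the P23H nrgna members. The WT barcode gave 16.5% of all UMIs of the WT nrgna members, and the P23H barcode 7.77% of those of the P23H nrgna members. Both are part of the nrgna member levels given above. The Müller markers summed to 1403 CPM in P23H and 2586 CPM in WT members. The log2 ratios of cebpb, mdka and apoeb were -5.27, -3.72 and -3.64 in members and -0.57, -0.73 and -1.26 in bipolar cells without uts1. Without the member with the most UMIs in each library, 196 genes were called higher and 100 lower.

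By fixed lists, immediate early genes, which neurons switch on within minutes of activity or stress, were called higher in P23H members more often than lower. Of 13 measured, 6 were higher (fosaa, junbb, egr4, npas4a, ier2a and atf3) and 0 lower, with a median of 1.05, beside 10.1% and 6.42% over all genes. In nrgna members, 4 of 12 were called higher and 0 lower, beside 11.1% and 8.28% of all genes measured there. The transcript of junbb was at 1732 CPM in P23H and 306 CPM in WT nrgna members, a log2 ratio of 2.50, beside 1.90 in bipolar cells without uts1. That of egr4 was at 3457 and 2069 CPM (0.74, beside 0.62), that of npas4a at 840 and 306 CPM (1.46, beside 0.56), and that of atf3 at 401 and 102 CPM (1.98, beside 1.09). In bipolar cells without uts1, 6 of 24 genes of the list were called higher and 7 lower, beside 14.3% and 18.6% of all genes measured there.

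Heat shock genes were called in both directions. In members, 4 of 15 measured were called higher (hsp70.3, hspa4a, dnajb1a and hspd1) and 2 lower (hsp70l and hspa8), beside 10.1% and 6.42% of all measured genes. In nrgna members, 6 of 14 were called higher and 1 lower, beside 11.1% and 8.28% of all genes measured there. The higher ones held the abundant hsp70.1, at 19670 CPM in P23H and 11498 CPM in WT nrgna members (log2 ratio 0.77). The mitochondrial chaperonin gene hspd1 was at 610 CPM in P23H and 160 CPM in WT nrgna members (log2 ratio 1.93, beside 1.08 in bipolar cells without uts1), and the inducible hsp70.3 at 14548 and 6048 CPM (1.27, beside 0.77). The constitutive chaperone gene hspa8 was at 550 and 1443 CPM (-1.39, beside -1.43). Of endoplasmic reticulum stress genes, 1 of 9 measured in members, atf3, was called higher and 0 lower, and of antioxidant genes 0 of 10 were called higher and 2 lower, gstp1 and prdx6, against the same shares of all genes. In the set cells chosen without uts1, the call on gstp1 was lost and its direction turned. It was there at 442 CPM in P23H V3 and 282 CPM in WT V3, against 736 and 1166 CPM in nrgna members.

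Clock genes called higher were per2 and tefa, 2 of 13 measured in members, beside 10.1% of all genes, with 0 lower. The period gene per2 was at 416 CPM in P23H and 175 CPM in WT nrgna members, a log2 ratio of 1.25, beside 1.05 in bipolar cells without uts1. The gene tefa, which encodes a PAR-type bZIP transcription factor, was at 617 and 248 CPM (1.32, beside 1.41). Both libraries were collected in the morning, and the exact hour of each is not given in the sources used here. Of the 14 genes that the study named in bipolar cells of these same samples, which are not independent evidence, 4 were called higher in P23H members (snap25a, hspd1, per2 and tefa) and 2 lower (neurod4 and rgs16), with a median of 0.11. The study named most of the 14 in its cluster rich in prkca, whereas members had fewer than 3 prkca UMIs. The list mixes genes that the study gave as raised and as lowered, so its median has no single direction. Over all genes measured in members, 10.1% were called higher and 6.42% lower. In nrgna members, hspd1, per2 and tefa were 3 called higher of 12 measured, with 0 lower, beside 11.1% and 8.28% of all genes. The log2 ratios of snap25a (0.25) and rgs16 (-0.56) were not called there. Amacrine cell markers summed to 3004 CPM in P23H and 1672 CPM in WT members, and their part in the calls over all members was not tested.

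Of 15 mGluR6 cascade genes listed, only 4 were measured in members. Of these, 0 were called higher in P23H members and 2 lower, beside 10.1% and 6.42% of all measured genes. In bipolar cells without uts1, 0 of 13 were called higher and 5 lower, beside 14.3% and 18.6%. The channel gene trpm1a had log2 ratios of -1.30 in members, -1.22 in nrgna members and -1.12 in bipolar cells without uts1. The regulator rgs11, which speeds the shutoff of the same cascade, had ratios of -1.31, -1.56 and -1.13. Of the transcription factor list, lhx4 was called higher in P23H nrgna members (0.61, 0.17 to 1.08). Outside the lists, and named after their values were seen, the Iroquois gene irx7 was at 96.6 CPM in P23H and 335 CPM in WT nrgna members (log2 ratio -1.79), while in bipolar cells without uts1 it was at 115 CPM in P23H V3 and 89.9 CPM in WT V3 (0.35). The guanine nucleotide exchange factor gene dock3 had ratios of 2.74 in nrgna members and 2.67 in bipolar cells without uts1, and the glucocorticoid-induced cochaperone gene fkbp5 of 3.25 and 2.15.

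**Figure D4:**
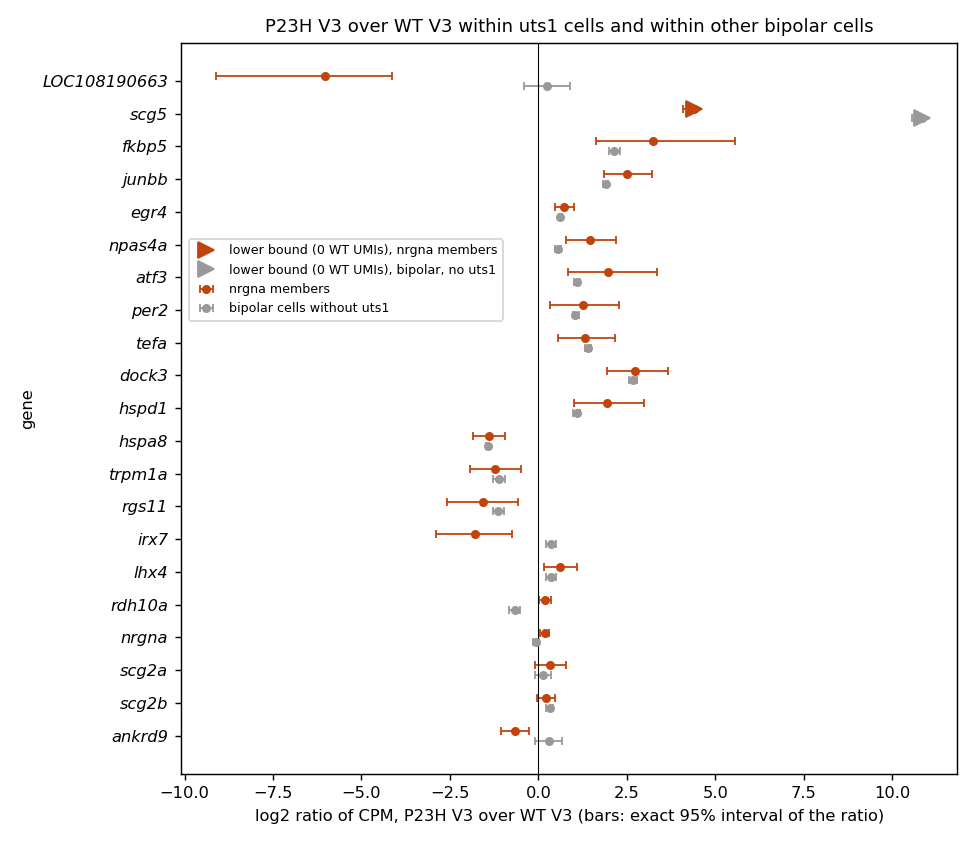
Points give the log2 ratio of CPM, P23H V3 over WT V3, in nrgna members (upper point of each gene) and in bipolar cells without uts1 (lower point), with exact 95% intervals, and triangles mark lower bounds where WT V3 had 0 UMIs. LOC108190663 (-6.04) and irx7 (-1.79) lie to the left in nrgna members only, and the genes nrgna, scg2a and scg2b lie near 0.

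Genes of the CRH system other than uts1 were sparse. Of the 6 listed, 2 were measured in members. The CRH-binding protein gene crhbp had 26 UMIs in 3 P23H nrgna members, 92.3% of them in 1 barcode, and 0 in those of WT V3. In the set cells chosen without uts1 it was at 173 CPM in P23H V3 and 24.6 CPM in WT V3, while in bipolar cells without uts1 it was at 97.8 and 206 CPM. Of dense core vesicle genes, 2 of 10 measured in members were called higher in P23H, scg5 and vgf, and 0 lower, beside 10.1% and 6.42% of all genes, and scg5 is the gene at 0 UMIs in the whole WT V3 library. Of the set and granin genes, the log2 ratios between nrgna members of P23H V3 and WT V3 were 0.18 for nrgna (0.06 to 0.29), 0.20 for rdh10a (0.03 to 0.37), 0.33 for scg2a (-0.09 to 0.78) and 0.21 for scg2b (-0.05 to 0.48), of which nrgna and rdh10a define the kind.

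In the set cells chosen without uts1, 123 of 1186 genes (10.4%) were called higher in P23H V3 and 91 (7.67%) lower. Many of these cells are also nrgna members, so the values are not an independent repeat. There the log2 ratio was 3.33 for junbb, 3.83 for atf3, 1.15 for per2, 0.89 for tefa, 1.89 for hspd1, -1.33 for hspa8, -1.74 for trpm1a, -2.44 for irx7 and -7.47 for LOC108190663, all called.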

How the data were processed

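Retinal cells of P23H (V2 and V3 chemistry) and WT (V3) fish were profiled with 10x Genomics 3′ kits, 1 library each. The authors aligned the reads to GRCz11 with Cell Ranger, and the deposited matrices hold raw UMI counts per gene and barcode, with no normalization. The 47048 gene rows were reduced to 30579 symbols by summing numbered suffix rows. Members and gene lists were chosen with earlier results of these data known. Counts were summed over barcodes of a kind in each library and given as CPM with exact 95% Poisson intervals. Shares have Clopper-Pearson intervals, ratios of CPM conditional binomial ones, and ratios of shares large-sample ones on the log scale. A gene was called where the intervals were apart and the ratio was 1.5 or more, with 20 UMIs or more in the higher group. A group at 0 was set to 3 counts, and genes at 0 whose floor exceeded the other group were left out, a filter added after the data were seen. The rule for named genes took the 12 highest and 8 lowest genes shared by both libraries in members, the 10 highest and 10 lowest between genotypes, and listed genes. Names outside it are said to be so, as are kinds of members. Doublets were not called: they were kept, and an alternative left out the 8% of barcodes with most UMIs. Other alternatives changed the limits of the rule, depth, scaling, filters and kinds of members. The scripts, tested on simulated data, ran in R 4.3.3 (edgeR 4.0.16) and in Python 3.11.15 (matplotlib 3.10.9, pandas 2.3.3, scipy 1.17.1, numpy 2.4.6). Depth was a median of 1241 (P23H V3), 1198 (WT V3) and 293 (P23H V2) UMIs. No sequence or coordinate was printed.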

Additional observations from a re-analysis of the deposited data

Results flagged for a closer look

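Of 3224 genes measured in both V3 libraries, 17 were called in opposite directions in P23H V3 and WT V3 when members were compared with bipolar cells without uts1, and the difference between the libraries was not tested. Those among the listed and named genes are given here. The log2 ratio was 2.03 in P23H V3 and -2.93 in WT V3 for LOC557301, 1.56 and -2.09 for the CRH gene crhb, 0.78 and -1.48 for the CRH-binding protein gene crhbp, and 0.71 and -0.66 for btg2. It was -2.10 in P23H V3 and 1.21 in WT V3 for agrn, -2.94 and 1.77 for cebpb, -1.30 and 1.24 for irx7, and -2.26 and 0.91 for zgc:153704. Of the P23H member UMIs, 73.1% of those of crhb and 51.1% of those of crhbp were in 1 barcode. Of the WT member UMIs, 95% of the 20 of agrn and 47.5% of the 40 of btg2 were in 1 barcode, and for cebpb and zgc:153704 1 WT barcode held 45 and 67 of the UMIs.

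Signal was also found outside the members. The P23H V2 library held uts1 at 35.1 CPM, with 0 members at its median of 293 UMIs. Without any UMI of the bipolar genes, 40 barcodes of P23H V3 and 12 of WT V3 held 4 or more uts1 UMIs, and 36 and 8 of them carried amacrine cell markers.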

How the results depend on the processing

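No paired analysis was possible because each condition has 1 library. The P23H V2 library had 0 members, so the rule gave no value there. Of 277 values recomputed under alternatives, 238 stayed within the limits set for a shift. Counts of genes had to stay within 1.5-fold, and other values inside the interval of the main value. For a list median this was an interval over the genes of the list, and for short lists their whole range. A median could change sign and stay within it. The count, with 149 of 159 list values within, is therefore not read as stability. The median changed sign under at least 1 alternative for AMPA and kainate receptors, transcription factors, ribbon synapse genes, endoplasmic reticulum stress genes and antioxidant genes. The ratio of shares (2.28 of all and 1.95 of bipolar barcodes) was 1.52 and 1.30 with 8 or more uts1 UMIs, and 3.32 and 2.85 without mixed barcodes (5 or more marker UMIs of another type, rods and cones not counted). Those markers include rlbp1b, at a median of 12 UMIs in P23H and 16.5 in WT nrgna members, and the amacrine markers that define gad2 members. Leaving out mixed barcodes thus removed every gad2 member and many nrgna members, and is not read as a removal of droplets with more than 1 cell. Genes called between genotypes (190 higher, 121 lower) were 476 higher with 2 or more uts1 UMIs, 109 higher with 8 or more, 325 higher with no limit on prkca, 302 higher with TMM factors, and 199 higher and 222 lower with no minimum of UMIs. With no minimum, 47.3% of called genes were higher and the median of all was -0.23, against 61.1% and 0.33, so the direction of both turned. They were 28 higher and 17 lower without mixed barcodes, 61 and 38 after thinning to 2000 UMIs, and 93 and 30 with 100 or more UMIs. Among alternatives chosen after seeing the data, they were 111 higher in nrgna members only, and 103 higher and 54 lower without mixed barcodes when rlbp1b was not counted. Fewer genes could be measured in most of these. Of genes called in members over bipolar cells without uts1 (104 higher, 117 lower), 14 higher and 28 lower were left without mixed barcodes, 65 higher after thinning and 27 higher with 100 or more UMIs. There were 234 higher with no minimum, 74 lower with no limit on prkca, 227 lower with TMM factors and 196 lower for nrgna members only. List medians between genotypes moved for the CRH family (2.47) to 0.46 by mean CPM per cell and 3.78 without gad2 members, and for AMPA and kainate receptors (0.94) to -0.02 by mean CPM per cell. For transcription factors (-0.55) they moved to 0.18 with 8 or more uts1 UMIs and 0.46 in nrgna members. Without mixed barcodes, they were 1.39 for endoplasmic reticulum stress genes (0.15), 1.39 for clock genes (0.51) and 1.29 for genes the study named (0.11). Clock genes were at 1.25 in nrgna members and 1.31 without mixed barcodes when rlbp1b was not counted. The uts1 level of members was 5083 CPM in P23H V3 after thinning, and 5258 CPM in P23H V3 and 6678 CPM in WT V3 by mean CPM per cell. The cause of these shifts was not tested.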
